A study of Mus musculus with 12 samples.

Results

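Interferon-linked tripartite motif (TRIM) genes were followed through the transcriptome of mouse bone marrow-derived macrophages (BMDMs) with and without the DNA sensor cGAS. The 9 genes, Trim30a, Trim30b, Trim30d, Trim12a, Trim12c, Trim34a, Trim21, Trim25 and Trim14, were chosen by name from the 38739 gene symbols of the table. BMDMs of wild-type (WT) C57BL/6J mice and of cGAS-/- mice on the C57BL/6J background, which lack cGAS in all cells, were left untreated (UT, media control) or stimulated with lipopolysaccharide (LPS, a bacterial cell wall component that activates Tlr4). The 4 groups, called WT UT, cGAS-/- UT, WT LPS and cGAS-/- LPS, held 3 RNA sequencing libraries each, and the mice were males of 8 weeks. The sample labels give LPS at 100 ng/mL for 1 h, whereas the methods of the study describe a higher concentration, a much longer exposure and another sequencer. The labels also call the cells of all 12 libraries, WT included, cGAS knockout in their culture step and name neutrophils in their RNA extraction step. The study describes the 3 libraries of a group as technical replicates, so p-values here measure the spread between these libraries, which may not be the spread between mice. The main fit, over all 12 libraries, used 1 spread for all 4 groups. Its p-values for a pair of groups therefore also reflect the spread within the groups not compared.

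TRIM proteins carry a RING finger, B-boxes and a coiled coil, and most act as ubiquitin ligases. Interferon beta, made after Tlr4 signalling, acts through its receptor to switch on genes that hold an interferon-stimulated response element (ISRE) in their promoter, many Trim genes among them. The family includes direct antiviral effectors, such as the relatives of human TRIM5, and regulators that tune sensor signalling. In the mouse genome (GRCm39), 6 of the 9 genes sit in a cluster of 11 Trim genes that spans 317 kb of chromosome 7 (103868000 to 104184568), in the order Trim6, Trim34a, Trim5, Trim12a, Trim34b, Trim12c, Trim30b, Trim30c, Trim30a, Trim30d and Trim30e-ps1. Trim21 lies 1.653 Mb away on the same chromosome (102207128 to 102214704). Trim25 lies on chromosome 11 (88890202 to 88911122) and Trim14 on chromosome 4 (46493781 to 46536143).

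The deposited values were taken as TPM (transcript abundances scaled by length and library), averaged over the transcripts of a symbol, which was inferred from the values. Read numbers are unknown and no counting error can be given, and levels of different genes also depend on how many transcripts were averaged. TPM summed to between 447189 and 503156 in 11 libraries and to 709802 in WT LPS replicate 3, where the pseudogene Fth-ps3 held 31.7% and protein-coding genes 18.5% of the total. Cgas, the deleted gene, lay at 1.19 to 3.25 TPM in the 6 WT libraries and at 0.0703 to 0.291 TPM in the 6 cGAS-/- libraries. All 8 macrophage markers were listed, with a summed level of 17413 to 18191 TPM in WT UT, 17016 to 26881 TPM in WT LPS, 20753 to 22632 TPM in cGAS-/- UT and 33874 to 34338 TPM in cGAS-/- LPS. None of 6 T and NK cell markers reached 1 TPM. The summed level of 9 neutrophil markers was 154 to 225 TPM in WT UT, 68.1 to 382 TPM in WT LPS, 71.7 to 141 TPM in cGAS-/- UT and 71.4 to 90.2 TPM in cGAS-/- LPS. The summed level of 6 B cell markers was 108 to 134 TPM in WT UT, 30.6 to 44.9 TPM in WT LPS, 19.9 to 28.5 TPM in cGAS-/- UT and 3.04 to 8.84 TPM in cGAS-/- LPS.

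The promoter sequences are shown first, because the ISRE occurs in some members and not in others. RefSeq promoters (GRCm38.p6, 300 bases around the start) were found for 8 of the 9 genes, with 2 starts for Trim30a, and Trim14 had no entry. The ISRE core GAAANNGAAA was searched on both strands, and in the windows below it is in capitals, read along the gene's own strand, so that it appears either as these letters or as their reverse complement. Each window of 30 bases is centred on the motif.
Trim30a, start 1 (chr7:104465210-104465239, minus strand): agttctttagTTTCTTTTTCtcagttcctg
Trim30a, start 2 (chr7:104446104-104446133, minus strand): ttgtttttagTTTCTTTTTCtcagttcctg
Trim30d (chr7:104507871-104507900, minus strand): agttctttagTTTCTTTTTCtcagttcctg
Trim12a (chr7:104315466-104315495, minus strand): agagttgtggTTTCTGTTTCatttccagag
Trim12c (chr7:104353359-104353388, minus strand): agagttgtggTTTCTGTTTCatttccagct
Trim34a (chr7:104244457-104244486, plus strand): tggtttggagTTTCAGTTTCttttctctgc
Trim21 (chr7:102565447-102565476, minus strand): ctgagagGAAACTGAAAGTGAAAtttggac

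The ISRE core stood in 7 of the 9 promoter windows of the family, against 3.44% of the 32851 RefSeq promoters. Trim21 held 2 overlapping copies, at 13 to 22 and 19 to 28 bases after its start. The copies at the first start of Trim30a and at that of Trim30d lay upstream, at -36 to -27 and -41 to -32 bases, in promoters that were identical at 93.6% of 295 aligned bases. Trim12a and Trim12c shared the same 10 letters, followed by an overlapping ETS-IRF composite motif (GGAANNGAAA, 2.72% of all promoters), which also occurred in Trim25 and so in 3 of the 9 windows. The promoters are copies of one another in part, so these matches are not independent. In Trim25 the composite motif, in capitals, overlapped the start itself.
Trim25 (chr11:88999389-88999418, plus strand): tcctgttcagTTTCGATTCCttcctcgctg

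Trim30b and Trim25 held no ISRE core in these windows. Neither did Trim30c, which stands between Trim30b and Trim30a in the cluster and is no member of the set. The Trim30c promoter was identical to the first Trim30a promoter at 81.4% of 199 aligned bases, and at the place of the ISRE it differed by a single substitution, T3C, counted from 1 at the 5′ end of the 10 capital letters of Trim30a. The aligned Trim30c window is shown for comparison.
Trim30c (chr7:104400896-104400925, minus strand): agttctgtggttcctttttctcagttccac

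A kappa B core (GGGNNNNNCC), the element bound by NF-kB, occurred in 5 of 9 windows and in 50.8% of all promoters. The upstream 250 bases of Trim30a and Trim30b are given as an example of a promoter with the ISRE core, in capitals in Trim30a, and of one without it.
Trim30a, start 1 (chr7:104465194-104465443, minus strand): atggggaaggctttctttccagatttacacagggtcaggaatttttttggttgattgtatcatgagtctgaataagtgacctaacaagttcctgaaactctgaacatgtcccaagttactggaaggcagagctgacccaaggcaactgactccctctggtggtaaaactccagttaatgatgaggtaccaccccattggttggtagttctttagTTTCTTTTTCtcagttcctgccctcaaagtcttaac
Trim30b (chr7:104358647-104358896, minus strand): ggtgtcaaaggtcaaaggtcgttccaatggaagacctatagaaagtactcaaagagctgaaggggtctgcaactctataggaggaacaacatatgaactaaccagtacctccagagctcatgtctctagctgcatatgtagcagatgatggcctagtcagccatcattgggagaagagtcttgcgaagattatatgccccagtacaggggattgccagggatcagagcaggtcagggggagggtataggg

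**Figure D1:**
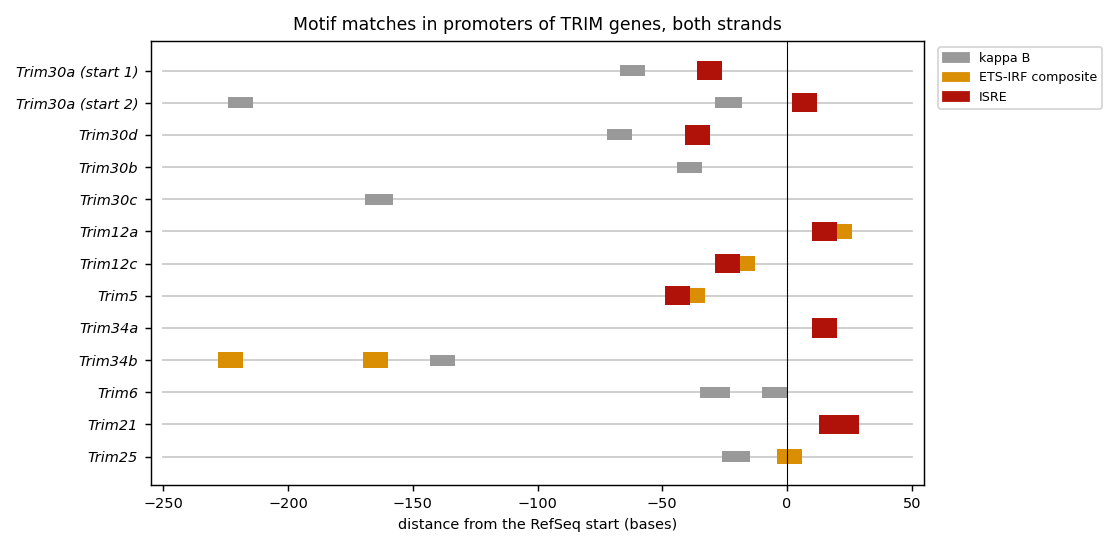
Motif matches in the 300-base RefSeq promoters of 8 family genes and of 4 other Trim genes of the cluster, with the distance from the start in bases on the x axis and a bar for each match. ISRE bars stand within 50 bases of the start in Trim30a, Trim30d, Trim12a, Trim12c, Trim5, Trim34a and Trim21, and Trim30b, Trim30c, Trim34b, Trim6 and Trim25 have none.

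In cGAS-/- BMDMs, Trim30d and Trim30a were the members called higher with LPS. Trim30a, which restrains Toll-like receptor signalling through degradation of Tab2, was at 14.4, 13.0 and 15.8 TPM in the UT libraries and at 76.1, 72.9 and 74.2 TPM after LPS. Trim30d, its neighbour, was at 4.25, 5.46 and 4.79 TPM in UT and at 42.9, 40.0 and 35.8 TPM after LPS. Trim30b, the lowest of the family, was at 0.211, 0.122 and 0.257 TPM in UT and at 1.71, 1.67 and 1.38 TPM after LPS. All LPS libraries stood above all UT libraries for these 3 genes, and the LPS libraries of a gene differed by at most 1.24-fold. The ratio of the means was 5.18 for Trim30a, 8.18 for Trim30d and 8.07 for Trim30b.

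On the scale of log2(TPM + 1), limma gave a log2 fold change of 2.80 (SE 0.44, adjusted p = 0.00136) for Trim30d and of 2.30 (SE 0.65, adjusted p = 0.0370) for Trim30a. Both were called, which here means an adjusted p (Benjamini-Hochberg, over 11887 genes) under 0.05, and both also passed the log2 fold change of 2 that the study required. In that comparison 4.76% of all genes tested were called higher, and 1.94% were higher under both thresholds. Trim30b, with a log2 fold change of 1.11 and an adjusted p of 0.151, was not called, and its low level compresses the change on this scale. The call of Trim30a was lost when any 1 of the 9 libraries outside WT LPS was left out, whereas Trim30d was called in 26 of 26 settings.

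The Trim12 and Trim34 genes are mouse relatives of the human retrovirus restriction factors TRIM5 and TRIM34. Trim34a was at 6.11, 6.54 and 7.42 TPM in cGAS-/- UT and at 17.5, 18.8 and 17.1 TPM in cGAS-/- LPS. Trim12a was at 4.70, 5.20 and 4.62 TPM in UT and at 11.7, 13.3 and 12.5 TPM with LPS, and Trim12c went from 8.18 to 9.85 TPM in UT to 18.2 to 20.6 TPM with LPS. The groups did not overlap for any of these genes, with mean ratios of 2.65, 2.58 and 2.14, and log2 fold changes of 1.29, 1.21 and 1.02. None passed the test across all 12 libraries, with adjusted p of 0.258, 0.271 and 0.212 by limma.

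The remaining members act on sensors and antibodies. Trim21, a cytosolic antibody receptor that sends antibody-coated particles to the proteasome, was at 7.30, 4.92 and 5.49 TPM in cGAS-/- UT and at 13.6, 14.0 and 12.4 TPM after LPS, and its log2 fold change was 1.07 (adjusted p = 0.292, limma). Trim14, which lacks a RING finger and serves as an adaptor beside Mavs at mitochondria, lay at 9.27 to 12.5 TPM and 13.7 to 15.5 TPM, with a log2 fold change of 0.38. Trim25, the ubiquitin ligase that acts with the RNA sensor RIG-I and the antiviral protein Zc3hav1, was at 30.8, 32.2 and 30.0 TPM and at 35.3, 35.7 and 33.6 TPM, with a log2 fold change of 0.17. Trim25 thus moved by 1.13-fold in the means although its groups were apart, and under scaling to a common protein-coding total its log2 fold change was -0.12.

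For all 9 genes every cGAS-/- LPS library was above every cGAS-/- UT library, a pattern that 15.5% of all genes tested showed. The median log2 fold change of the 9 genes was 1.11, beside -0.20 over all genes tested. The summed macrophage markers also moved, from 20753 to 22632 TPM in cGAS-/- UT to 33874 to 34338 TPM in cGAS-/- LPS. The summed B cell markers were at 19.9 to 28.5 TPM in cGAS-/- UT and at 3.04 to 8.84 TPM in cGAS-/- LPS. The part of either list in these values was not tested. The number of calls differed between settings. When only the 6 cGAS-/- libraries were fitted, 9 of 9 genes were called higher, with 12.7% of all genes called higher. Adjusted p by limma ran from 5.81e-06 for Trim30a to 0.0416 for Trim14. The SE of Trim30a was 0.073 in that fit and 0.65 in the main fit, which also holds the WT LPS libraries. With a weight per library, 8 of 9 were called, with 13.2% of all genes called higher. With quantile normalization 4 were called, beside 6.85% of all genes, and with TMM factors 3, beside 6.97%. Without WT LPS replicate 3, 7 of 9 were called, with 9.19% of all genes called higher.

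**Figure D2:**
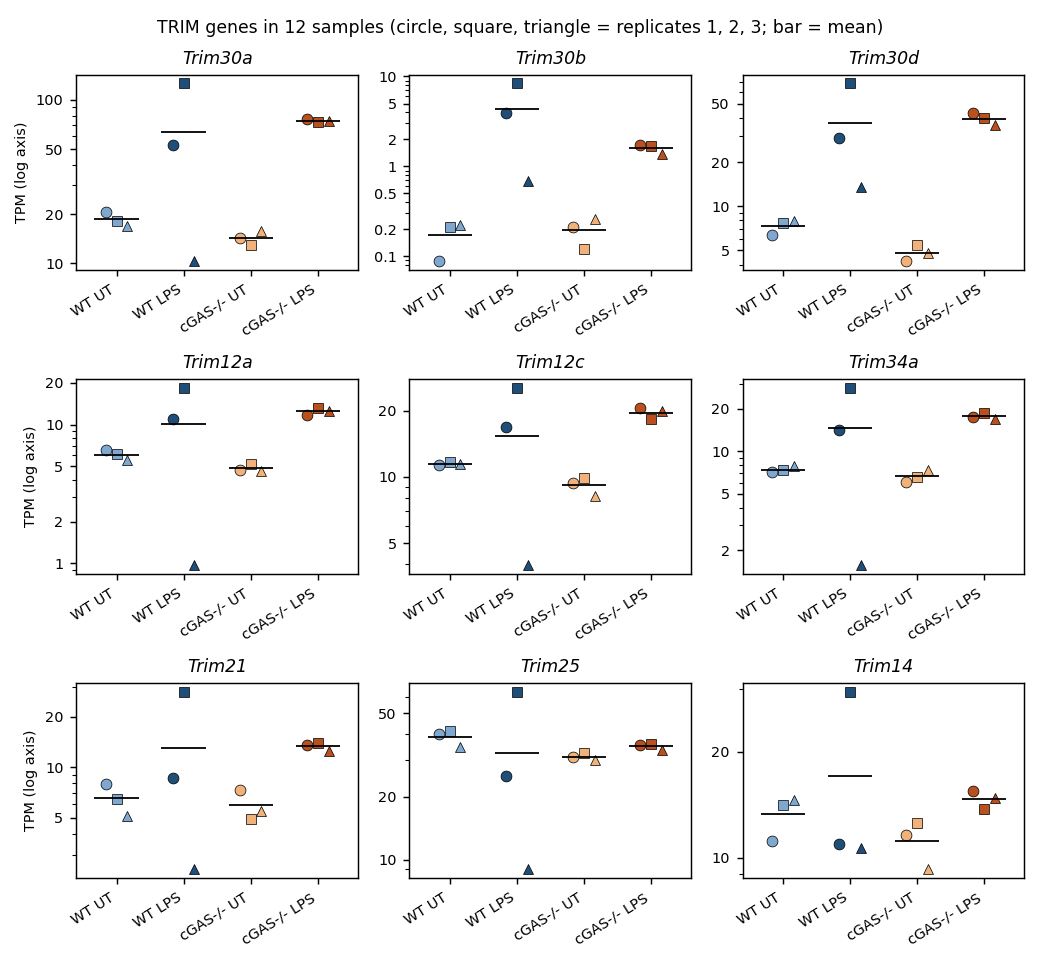
TPM of the 9 TRIM genes in each of the 12 libraries on a log axis, with the mean of each group as a bar. The cGAS-/- LPS libraries lie close together and above cGAS-/- UT for every gene, and WT LPS replicate 2 is the highest and replicate 3 the lowest WT LPS library for every gene.

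In WT BMDMs the same genes were measured with a far larger spread after LPS. Trim30a was at 20.7, 18.2 and 16.9 TPM in WT UT and at 53.1, 126 and 10.4 TPM in WT LPS. Trim34a was at 7.12, 7.34 and 7.83 TPM in UT and at 14.1, 28.2 and 1.57 TPM with LPS. Trim21 was at 7.90, 6.48 and 5.11 TPM in UT and at 8.57, 28.2 and 2.45 TPM with LPS. Replicates 1 and 2 of WT LPS were above all WT UT libraries for 7 of the 9 genes, Trim25 and Trim14 being the exceptions, as they were for 11.9% of all genes. Replicate 3 was below all WT UT libraries for 7 of the 9, with Trim30b and Trim30d as the exceptions, and for 66.6% of all genes. Replicate 2 was the highest of all 12 libraries and replicate 3 the lowest of WT LPS for 9 of 9 genes, and they differed by between 2.78-fold for Trim14 and 19.0-fold for Trim12a. The summed B cell markers were at 108 to 134 TPM in WT UT and at 30.6 to 44.9 TPM in WT LPS. Their part in these values, and that of the composition of replicate 3, was not tested.

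The genes called in WT cells were Trim30d and Trim30b. Trim30d was at 6.37, 7.70 and 7.94 TPM in WT UT and at 29.0, 68.6 and 13.5 TPM in WT LPS, with a log2 fold change of 1.91 (SE 0.44, adjusted p = 0.00974, limma). Trim30b was at 0.0891, 0.212 and 0.221 TPM in UT and at 3.88, 8.37 and 0.680 TPM with LPS, with a log2 fold change of 1.86 (SE 0.46, adjusted p = 0.0131, limma). These were also the only members whose WT LPS libraries were all above WT UT, a pattern shown by 5.31% of all genes. The 2 calls stood beside 4.31% of all genes called higher. Neither passed when only the 6 WT libraries were fitted, where the SE of each was 0.59. Neither reached a log2 fold change of 2 in the fit over 12 libraries. With TMM factors both went beyond 2, at 2.12 for Trim30b (adjusted p = 0.00312, limma) and 2.51 for Trim30d (adjusted p = 0.000158, limma), and both also did so with quantile normalization, with a pseudocount of 0.1, with a weight per library and without WT LPS replicate 3. The ratio of the means was 24.8 for Trim30b and 5.05 for Trim30d, and it was 13.1 and 2.89 without WT LPS replicate 2.

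The other members were not called in WT cells. Their log2 fold changes were 1.13 for Trim30a (adjusted p = 0.201, limma), 0.42 for Trim21, 0.31 for Trim34a, 0.19 for Trim14, 0.13 for Trim12a, 0.09 for Trim12c and -0.62 for Trim25. The signs of Trim12a, Trim12c and Trim14 were negative after scaling to a common total. The median of the 9 genes was 0.31, beside -0.46 over all genes. With TMM factors, Trim30a (1.75, adjusted p = 0.0304, limma) and Trim14 (0.80, adjusted p = 0.0429, limma) were called higher as well, with 7.43% of all genes called higher, and the median was 0.83, beside -0.11 over all genes. The median was 0.80 with quantile normalization and 0.80 with a weight per library. With that weight 3 genes, Trim30a, Trim30b and Trim30d, were called higher, with 3.79% of all genes called higher. Without replicate 3, the median was 1.17 and 7 of 9 genes were called higher, with 8.26% of all genes called higher, and without replicate 2 the median was -0.37. Without replicate 2, Trim30b and Trim30d were called higher, with 5.58% of all genes called higher, and Trim25 was called lower (log2 fold change -1.29, adjusted p = 0.0108, limma), with 43.1% of all genes called lower. In the fit without replicate 3, the log2 fold changes ran from 0.80 for Trim12c to 2.53 for Trim30b among the genes called, and Trim25, which lay at 34.4 to 41.2 TPM in UT and at 25.0, 63.4 and 8.99 TPM with LPS, and Trim14 were not among them.

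**Figure D3:**
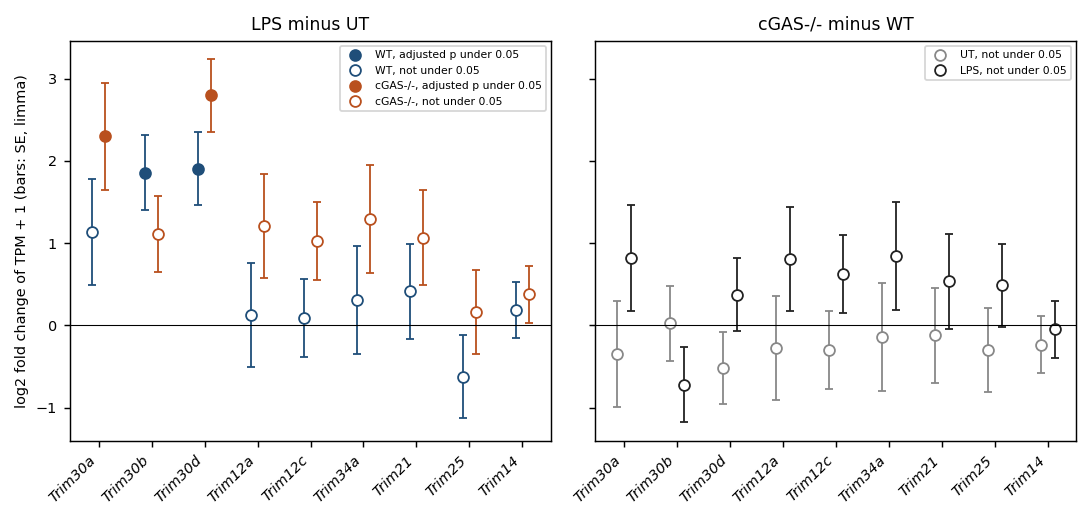
Log2 fold change of TPM + 1 for the 9 TRIM genes with its standard error from limma, LPS against UT at the left and cGAS-/- against WT at the right, with filled points for an adjusted p under 0.05. The filled points are Trim30b and Trim30d in WT and Trim30a and Trim30d in cGAS-/- cells, and no point at the right is filled.

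Without LPS, no member was called between the genotypes. The mean was lower for 8 of the 9 genes, with Trim30b, at 0.197 TPM ± 0.0688 in cGAS-/- UT against 0.174 ± 0.0736 in WT UT (SD, n = 3), as the exception. The largest difference on the log2 scale was that of Trim30d, with a log2 fold change of -0.52. It was at 4.83 TPM ± 0.610 against 7.34 ± 0.848 (SD, n = 3), a ratio of 0.659. Trim30a was at 14.4 TPM ± 1.39 against 18.6 ± 1.94 (SD, n = 3), a ratio of 0.774. The libraries of both genotypes did not overlap for 5 genes, Trim30a, Trim30d, Trim12a, Trim12c and Trim25, each lower in cGAS-/- UT, as they were for 18.4% of all genes.

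None of the 9 differences was called by limma over the 12 libraries, where 1.83% of all genes were called in either direction, and 0 of 9 had an unadjusted p under 0.05. The median was -0.28, beside -0.04 over all genes. When only the 6 UT libraries were fitted, Trim30d alone was called lower (adjusted p = 0.0497, limma), with 7.07% of all genes called lower, and it was also called lower with a weight per library, with 8.03% of all genes called lower. The summed B cell markers, which were 108 to 134 TPM in WT UT and 19.9 to 28.5 TPM in cGAS-/- UT, moved with genotype in the same direction. The summed neutrophil markers, at 154 to 225 TPM in WT UT and 71.7 to 141 TPM in cGAS-/- UT, did so too, and the part of either list in the values of the Trim genes was not tested. In RNA from whole cultures, fewer cells of a type and less RNA per cell cannot be told apart.

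With LPS, the levels of the 2 genotypes overlapped for every member. For 9 of 9 genes all cGAS-/- LPS libraries lay between WT LPS replicates 3 and 2, and for 8 of 9, Trim30b being the exception, they lay above replicate 1. The log2 fold changes of cGAS-/- LPS against WT LPS were 0.84 for Trim34a, 0.82 for Trim30a, 0.81 for Trim12a, 0.63 for Trim12c, 0.53 for Trim21, 0.49 for Trim25, 0.38 for Trim30d, -0.05 for Trim14 and -0.72 for Trim30b. By limma 0 of 9 were called, with 2.36% of all genes called in either direction, and 0 of 9 had an unadjusted p under 0.05. The median was 0.53, beside 0.20 over all genes, and it was 0.36 with TMM factors, 0.25 with quantile normalization and 0.16 with a weight per library. The summed macrophage markers of cGAS-/- LPS were above those of every WT LPS library, at 33874 to 34338 TPM against 17016 to 26881 TPM. The summed B cell markers were below, at 3.04 to 8.84 TPM against 30.6 to 44.9 TPM. The part of either list in these values was not tested.

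The sign of the genotype difference changed with the library left out for 8 of the 9 genes, Trim30b being the exception at -1.39 to -0.15. Without replicate 3, the median of the 9 genes was -0.18, and Trim30b was called lower in cGAS-/- LPS (log2 fold change -1.39, adjusted p = 0.00602, limma), with 4.44% of all genes called lower. Without replicate 2, the median was 1.15 and 4 genes, Trim21, Trim25, Trim30a and Trim30d, were called higher, with 23.9% of all genes called higher. In the test of the difference between the LPS responses of the genotypes (the interaction), 0 of 9 genes were called by limma, with 0.9% of all genes called, and 0 of 9 had an unadjusted p under 0.05. The interaction was 1.17 for Trim30a (SE 0.91), 0.89 for Trim30d (SE 0.62) and -0.75 for Trim30b (SE 0.65), with a median of 0.89 over the 9 genes, of 0.098 without replicate 3 and of 1.45 without replicate 2. Trim30b was called without replicate 3 (-1.42, adjusted p = 0.0351, limma), with 1.64% of all genes called lower, and Trim30d was called without replicate 2 (1.47, adjusted p = 0.0365, limma), with 11.4% of all genes called higher.

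Ratios within a library do not depend on its total. That of Trim30b to Trim30a differed most between the LPS groups among the 9 ratios computed for Trim genes. Relative to Trim30a of the same library, Trim30b was at 6.56% to 7.30% in the 3 WT LPS libraries and at 1.85% to 2.29% in the 3 cGAS-/- LPS libraries, although Trim30a itself ranged from 10.4 to 126 TPM in the former. The ratio was 3.22-fold higher in WT LPS, and the groups did not overlap. In UT it was 0.430% to 1.31% in WT and 0.937% to 1.63% in cGAS-/- libraries, which overlapped. Trim30c, which is no member, was at 49.0% to 60.0% of Trim30a in WT LPS and at 22.8% to 30.2% in cGAS-/- LPS, a ratio 2.05-fold higher in WT LPS. Its ratio was already apart in UT, at 6.97% to 8.71% in WT and at 3.08%, 1.39% and listed at 0 in cGAS-/- libraries.

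Among the 9 ratios to Trim30a that were computed, 3 did not overlap between the LPS groups, those of Trim30b, Trim30c and Trim14. Of the 11886 other genes tested, 13.3% had a ratio to Trim30a that did not overlap between these groups, and for 6.32% it was lower in cGAS-/- LPS, as for these 3. The last was at 20.5% to 103% of Trim30a in WT LPS and at 18.9% to 20.3% in cGAS-/- LPS. For each of the 3, the two-sided exact permutation test gave p = 0.1, the smallest that 3 against 3 libraries allow, and an adjusted p of 0.3 over the 9 ratios, so none passed. The other 6 ratios overlapped, Trim30d at 54.3% to 130% against 48.2% to 56.3%, Trim21 at 16.1% to 23.7% against 16.7% to 19.2%, and Trim25, whose window like that of Trim30b held no ISRE core, at 47.1% to 86.7% against 45.3% to 48.98% of Trim30a. The ratio to Trim30a was examined after the values had been seen. In both genotypes Trim25 fell behind Trim30a with LPS, from 190.1% to 248% over the UT libraries to 45.3% to 86.7% over the LPS libraries.

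**Figure D4:**
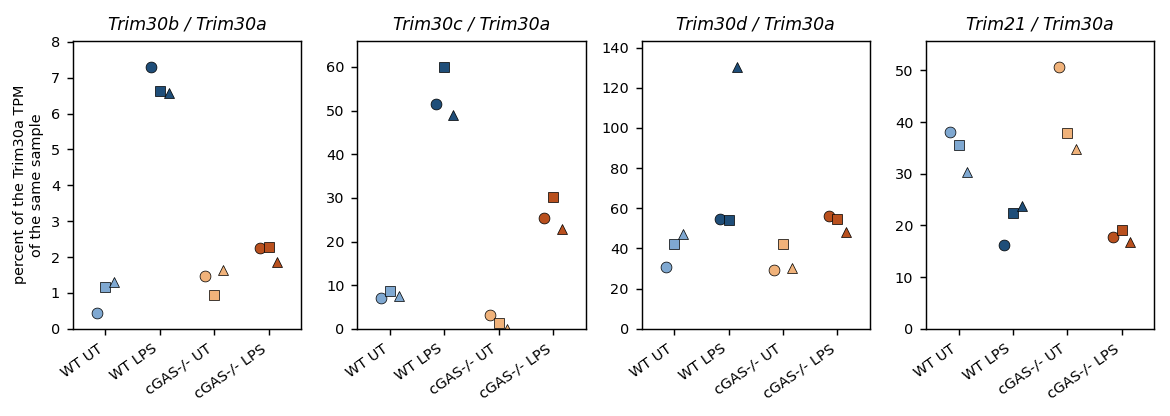
Level of 4 Trim genes as a percent of the Trim30a level of the same library, with a point for each of the 12 libraries and axes that start at 0. The 3 WT LPS libraries lie together at 6.56% to 7.30% for Trim30b, above the cGAS-/- LPS libraries at 1.85% to 2.29%, whereas the LPS groups overlap for Trim30d and Trim21.

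The order of the levels within the family changed with LPS. In UT libraries of both genotypes Trim25 was the highest, with a mean of 38.4 TPM in WT and a range of 30.0 to 32.2 TPM in cGAS-/- cells, followed by Trim30a, and neither overlapped with the next gene. Trim14, at 13.3 TPM ± 1.86 in WT UT, and Trim12c, at 11.4 ± 0.177 (SD, n = 3), came next and overlapped with one another. Trim34a, Trim30d, Trim21 and Trim12a, with levels between 5.11 and 7.94 TPM in WT UT, followed in an order in which neighbours overlapped. Trim30b was below all of them.

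In cGAS-/- LPS, Trim30a led with 74.4 TPM ± 1.64, followed by Trim30d with 39.5 ± 3.58 and Trim25 with 34.9 ± 1.12 (SD, n = 3), each apart from the next. Trim12c (19.5 TPM) and Trim34a (17.8 TPM) overlapped, as did Trim14 (14.7 TPM), Trim21 (13.3 TPM) and Trim12a (12.5 TPM) with their neighbours, and Trim30b stayed last at 1.59 TPM ± 0.182 (SD, n = 3). In WT LPS the means of Trim30a, Trim30d and Trim25 were 63.3, 37.0 and 32.5 TPM in the same order, but all neighbours overlapped.

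Among the other genes of the cluster, Trim30c had the largest change. It was at 1.44, 1.58 and 1.26 TPM in WT UT and at 27.3, 75.8 and 5.07 TPM in WT LPS, and at 0.444 and 0.180 TPM and listed at 0 in cGAS-/- UT against 19.3, 22.0 and 16.9 TPM in cGAS-/- LPS. It was called with LPS in both genotypes, with log2 fold changes of 3.28 in WT (adjusted p = 0.00507) and 4.09 in cGAS-/- cells (adjusted p = 0.00176, limma). Trim5 was at 2.97 to 3.81 TPM in WT UT and at 1.51 to 5.03 TPM in WT LPS. It was at 1.97 to 3.26 TPM in cGAS-/- UT and at 5.15 to 5.41 TPM in cGAS-/- LPS, and was called in no comparison of the main fit. With TMM factors, without WT LPS replicate 2 and without replicate 3, both Trim5 and Trim30c were called higher with LPS in cGAS-/- cells. The ISRE of Trim5 lies in a promoter identical to that of Trim12a over 241 aligned bases. Trim6, Trim34b and Trim30e-ps1 stayed at or under 0.545 TPM in all libraries.

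Outside the 9 genes, 49 further Trim symbols, Pml included, were listed, and 22 passed the filter on low values. In WT cells LPS raised 2 of the 22 and lowered 8 by the same test, and in cGAS-/- cells it raised 2 and lowered 6. Of all genes tested, 23.3% were called lower with LPS in WT and 9.06% in cGAS-/- cells, where 4.31% and 4.76% were called higher. With TMM factors, 12.1% were called lower and 7.43% higher in WT and 6.59% lower and 6.97% higher in cGAS-/- cells, and LPS then raised 2 and lowered 3 of the 22 Trim genes in WT cells, against 3 raised and 3 lowered without cGAS. In the main fit, the genes called higher were Trim30c and Pml, the organiser of PML nuclear bodies. The log2 fold changes of Pml were 2.01 in WT and 1.16 in cGAS-/- cells. Pml was also lower in cGAS-/- LPS than in WT LPS (log2 fold change -1.25, adjusted p = 0.0472, limma), with 1% of all genes called lower. It was at 8.26, 8.54 and 19.2 TPM in WT LPS replicates 1, 2 and 3 and at 3.76 to 4.54 TPM in cGAS-/- LPS. With TMM factors, 0 of the 22 genes were called between the LPS groups. Those called lower with LPS in the main fit included Trim47, at 5.07 to 6.95 TPM in WT UT and 0.344 to 1.60 TPM in WT LPS. Its log2 fold change in cGAS-/- cells was -1.57. Also among them were Trim28, the KRAB zinc finger corepressor (-1.40 in WT), Trim59 (-1.36 in WT), Trim37 (-0.98 in cGAS-/- cells) and Trim62 (-0.97 in cGAS-/- cells). The medians of the 22 genes were -0.64 and -0.43, against 0.31 and 1.11 for the 9 family members.

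Of 16 listed partners of the TRIM proteins, 14 were tested, and the same 2, Ddx58 and Nlrp3, were called higher with LPS in both genotypes. Ddx58, which encodes RIG-I, the sensor that Trim25 acts on, rose by 2.27 in WT and 2.55 in cGAS-/- cells on the log2 scale. Nlrp3, the inflammasome sensor that Trim30a is known to restrain, rose by 1.41 and 1.38. Mavs, the adaptor beside Trim14, was at 7.03 to 7.61 TPM in WT UT, 2.12 to 6.66 TPM in WT LPS, 5.997 to 7.05 TPM in cGAS-/- UT and 3.84 to 5.22 TPM in cGAS-/- LPS, and was not called with LPS in either genotype. Tab2, at 15.9 to 19.3 TPM in UT, Zc3hav1, at 12.9 to 15.0 TPM in UT, and Traf6, at 2.69 to 3.79 TPM in UT, were not called with LPS in either genotype. Cgas was the gene called between genotypes, lower by limma at a log2 fold change of -1.69 in UT and -1.60 with LPS.

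The wider interferon list places the family's response. Of 46 interferon-pathway and interferon-stimulated genes tested, LPS raised 36 and lowered 1, Irf8, in WT cells and raised 38 in cGAS-/- cells. The medians were 2.46 and 2.56, and 4.31% and 4.76% of all genes tested were called higher. Isg15, a ubiquitin-like modifier, rose by 5.13 in WT and 5.82 in cGAS-/- cells on the log2 scale, and Socs3, a feedback inhibitor of cytokine signalling, by 4.77 and 6.08. Trim30d, at 1.91 and 2.80, was the member called in both genotypes. Between genotypes with LPS, 2 of 46 were called, both lower in cGAS-/- cells, with 1% of all genes called lower. They were Ifnb1 (-1.20, adjusted p = 0.00597, limma), which encodes interferon beta, and Igtp (-1.40, adjusted p = 0.0436, limma), an immunity-related GTPase. Without WT LPS replicate 3, 22 of 46 were called lower and 0 higher, with 4.44% of all genes called lower. With TMM factors, 8 were called lower and 0 higher, with 1.61% of all genes called lower. Without replicate 2, 4 were called lower and 7 higher, with 3.98% of all genes called lower and 23.9% higher. In the interaction 0 of 46 were called by limma, and 3 had an unadjusted p under 0.05. The median of the list was -0.42 for cGAS-/- UT against WT UT, with 1 gene called lower (1.58% of all genes), beside -0.28 for the 9 TRIM genes. For cGAS-/- LPS against WT LPS it was -0.20, with 14 of 46 log2 fold changes above 0, beside 0.53 for the TRIM genes, of which 7 of 9 were above 0. The medians of the list and of the TRIM genes were -0.55 and -0.18 without WT LPS replicate 3, 0.094 and 1.15 without replicate 2, and -0.44 and 0.36 with TMM factors.

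Over the 12 libraries, the genes closest to the mean of the 9 members on the log2 scale were Mov10, an antiviral RNA helicase (Pearson r = 0.992), Zup1 (0.980), Rnf114 (0.979), Ifih1, the RNA sensor MDA5 (0.974), and Sdc3 (0.974). The libraries share treatment, genotype and the high and low WT LPS replicates, so the values are a description. Without WT LPS replicate 3, the closest were Slfn8 (0.994), Irgm2 (0.992), Parp12 (0.991), Mov10 (0.990) and Gm5431 (0.989).

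Sequence shared between copies limits how well the members can be told apart. Of the 31-base words in the GENCODE transcripts of Trim34a, 64.7% also occurred in another gene, 50.1% in Trim34b. For Trim12c the share was 51.5%, with 36.5% shared with Trim5 and 16.1% with Trim12a. For Trim30d it was 13.0%, with 10.4% shared with Trim30a, and for Trim30b 20.4%, mostly with Gm36430. The share was 21.3% for Trim30a, 11.9% for Trim12a, 27.9% for Trim14, 1.86% for Trim21, 0.633% for Trim25 and 5.69% for Trim30c. For Trim14 it was mostly with Nans (21.3%), and for Trim30a the largest parts were with Gm42553 (9.31%) and Gne (9.25%), none of them a Trim gene. Trim30a shared 4.18% with Trim30d. The values of Trim34a and Trim12c are therefore uncertain where reads could be split between copies, and those of Trim21 and Trim25 rest on sequence that is almost their own.

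**Figure D5:**
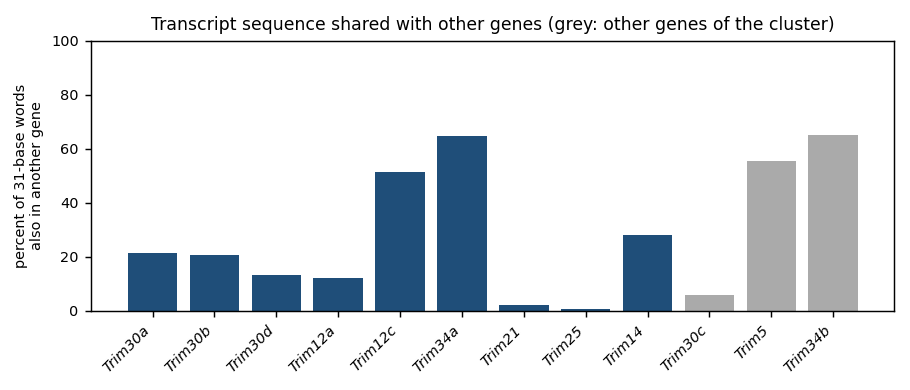
Percent of the 31-base words in the GENCODE transcripts of each gene that also occur in transcripts of another gene, for the 9 members (blue) and 3 other genes of the cluster (grey). The highest bars among the members are Trim34a at 64.7% and Trim12c at 51.5%, and the lowest are Trim21 at 1.86% and Trim25 at 0.633%.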

How the data were processed

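RNA of 12 BMDM libraries, 3 per group, was analysed. Per the labels, the authors processed the reads with fastp, STAR and kallisto on GRCm39, with versions not given in the sources used here. The deposited values were taken as TPM from kallisto, averaged by the authors over the transcripts of a symbol, a unit inferred from the values. The files give no depth, so precision rests on the spread between libraries. Genes with at least 1 TPM, in 3 or more of the 12 libraries, with totals set to 1000000 in the filter alone, were kept (11887, among them all 9 members). Limma 3.58.1 in R 4.3.3 was fitted to log2(TPM + 1), with a mean per group over all 12 libraries and variances that follow a trend. Fold changes on this scale understate those of low genes. A call needed an adjusted p (Benjamini-Hochberg) under 0.05, and calls with log2 fold changes beyond 2 were counted as well. Exact permutation tests used SciPy 1.17.1. The fit was tested on simulated data with the same spread in all groups, which does not cover the wider spread of the WT LPS libraries.

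Named genes were the 9 members, other genes of the cluster, up to 5 other Trim genes per comparison with the largest called change and groups apart, the partners and the interferon list by counts with examples, and the 5 genes most like the members. Members and lists were chosen with earlier results of these data known. Alternatives were other pseudocounts, filters and scalings, library weights, a replicate block, the compared groups alone and each library left out. Promoters came from RefSeq (GRCm38.p6), transcripts and positions from GENCODE M39. Replicate numbers in the labels did not pair the libraries (deviations of same-numbered libraries correlated at -0.031 to 0.038). No 2 libraries were identical. One gene of the interferon list is not reported here by name.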

Additional observations from a re-analysis of the deposited data

How the results depend on the processing

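The number of calls varied with the setting. For cGAS-/- LPS against cGAS-/- UT, where 2 of 9 genes were called, the number was 1 without a filter on low values and with a common total, 4 with quantile normalization, 8 with a weight per library and 9 with the 6 cGAS-/- libraries alone, and it was 1 to 7 with 1 library left out. In the settings that were named the share of all genes called higher was 2.03%, 4.02%, 6.85%, 13.2% and 12.7%, in that order. For WT LPS against WT UT, where 2 were called, it was 4 with TMM factors (7.43% of all genes called higher) and 3 with library weights (3.79%). It was 1 with a filter at 5 TPM (5.48%), which removes Trim30b, and 0 with the 6 WT libraries alone (1.4%). With a log2 fold change beyond 2 it was 0 (2 where TMM factors, quantile normalization, a pseudocount of 0.1 or library weights were used as well). The number was 2 to 7 with 1 library left out. For cGAS-/- UT against WT UT, where 0 were called, it was 1 with library weights and 1 with the 6 UT libraries alone (8.03% and 7.07% of all genes called lower), and it was 0 with each library left out. For cGAS-/- LPS against WT LPS the number was 0 to 4, and for the interaction 0 to 1, with 1 library left out.

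With the replicate number as a block, which did not pair the libraries (each library correlated best with its own number in 12 of 36 cases), 2, 2, 0, 0 and 0 members were called in the comparisons above, as without it, with adjusted p of 0.0461 for Trim30a and 0.00255 for Trim30d in cGAS-/- cells (limma). Small values changed sign in a few settings. In WT LPS against WT UT, Trim12a was -0.031 with a pseudocount of 0.1 and -0.052 with a common total, Trim12c -0.15 and Trim14 -0.073 with a common total. Trim14 in cGAS-/- LPS against WT LPS was 0.070 with a common total, and its interaction was -0.11 with TMM factors, -0.10 with quantile normalization and -0.049 with a common protein-coding total. Trim25 in cGAS-/- LPS against UT was -0.12 with that total, which was added after the data were seen. The log2 ratio of Trim12a to Trim30a between the LPS groups was -0.013 with a pseudocount of 1. With 1 library left out, these log2 values changed sign over their range. For cGAS-/- UT against WT UT the ranges were Trim30b -0.025 to 0.074 and Trim21 -0.26 to 0.014. For cGAS-/- LPS against WT LPS the ranges were Trim30a -0.14 to 1.60, Trim30d -0.18 to 0.96, Trim12a -0.18 to 1.47, Trim12c -0.080 to 1.13, Trim34a -0.17 to 1.59, Trim21 -0.22 to 1.32, Trim25 -0.19 to 1.15 and Trim14 -0.28 to 0.41. For WT LPS against WT UT the ranges were Trim12a -0.54 to 1.11, Trim12c -0.40 to 0.80, Trim34a -0.43 to 1.32, Trim21 -0.37 to 1.17, Trim25 -1.29 to 0.058 and Trim14 -0.27 to 0.43. For the interaction the ranges were Trim34a -0.032 to 1.72, Trim21 -0.11 to 1.43 and Trim14 -0.050 to 0.65. For the ratio to Trim30a between the LPS groups they were Trim12a -0.050 to 0.52, Trim12c -0.41 to 0.056 and Trim34a -0.033 to 0.37. Of 1111 values of members under the alternatives, 1025 kept direction and side of the threshold, 32 changed sign, 41 gained a call and 13 lost one, and the cause was not tested. TMM factors moved the median of all genes in WT LPS against UT from -0.46 to -0.11. The interaction uses all 4 groups, so it was not run on compared groups alone.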
